A study of Homo sapiens with 6 samples.

Results

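The genes described here were those that carry out or restrain apoptosis: death receptors and the other receptors and ligands of the tumor necrosis factor (TNF) superfamily, caspases, the adaptors that join them, inhibitor of apoptosis proteins and the BCL2 family. They were chosen by gene symbol alone, with no measured value used, and 77 of the 26255 genes listed met the rule. Their RNA was measured by RNA sequencing in NCI-H1299 (H1299), an established human non-small cell lung cancer line, as FPKM (a fragment count scaled to gene length and library size), so that levels can be compared between genes. The groups compared were 3 shControl libraries of cells carrying a control short hairpin RNA and 3 shEphexin1 libraries of cells carrying a hairpin against Ephexin1, the guanine nucleotide exchange factor encoded by NGEF. Cells of both groups grew in the same RPMI-1640 medium with serum and carried a plasmid in which a U6 promoter drives the hairpin, and the labels name no other agent, dose or time. The vector was a pSilencer plasmid, given as its neomycin resistance version in the sample labels and as its hygromycin version in the methods. The study's methods speak of stable clones, and the 3 shEphexin1 libraries carry 1 common name stem, so they may be repeats of a single clone. Nothing states that the 3 libraries of a group came from separate cultures, and p-values therefore measure only the spread between these libraries, which may be technical.

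Apoptosis can start at the cell surface or at the mitochondrion. In the extrinsic route a TNF superfamily ligand binds a receptor with an intracellular death domain, the adaptor FADD recruits caspase-8 or caspase-10, and these cut the executioner caspases. In the intrinsic route BH3-only proteins neutralise the pro-survival BCL2 proteins or switch on BAX and BAK1, cytochrome c leaves the mitochondrion, and APAF1 assembles with it to activate caspase-9. TNF receptors can also signal survival through NF-kB, whose targets include inhibitor of apoptosis proteins.

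NGEF RNA stood at 13.3, 11.7 and 16.4 FPKM in control cells and at 9.81, 8.25 and 10.5 FPKM in depleted cells. The groups did not overlap, and the shEphexin1 mean was 68.9% of the shControl mean, but the difference did not pass the main test (log2 fold change -0.53, SE 0.163, limma adjusted p = 0.103). It passed the p threshold, under 2-fold, with a term for replicate 2 (limma adjusted p = 0.00572) and with a correction for GC content and length (0.00464). With replicates 1 and 3 alone (0.0338) or chromosome arm medians subtracted (0.108) it did not pass. The study checked the knockdown at the protein level by western blot. The mesenchymal gene VIM stood at 1979 to 2670 FPKM and the leukocyte genes PTPRC and CD3E were listed at 0 in all 6 libraries. The epithelial keratin KRT18 ran from 67.6 to 109.4 FPKM in shControl and from 36.3 to 54.7 FPKM in shEphexin1, with CDH1 listed at 0 throughout, and KRT8 likewise from 5.13 to 8.44 FPKM down to 2.65 to 3.48 FPKM. Of the markers of other cell types, CD68 ran from 37.8 to 71.1 FPKM, DCN, COL1A1, PECAM1 and CDH5 reached at most 0.693 FPKM, and LUM was listed at 0. Whether the keratin difference has a part in the results was not tested. Libraries listed 16958 to 17509 genes above 0, and how many reads stand behind a value is unknown. Replicate 2 of both groups differed from the other libraries in how its values followed GC content (Spearman rho of a gene's deviation on its GC content across genes, -0.688 and -0.753 against 0.336 to 0.655). Replicate 2 was the lowest library of both groups for 27 of the 55 members tested and the highest of both for 10, and the part of this in the results was not tested beyond the fits given with the results.

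Ephexin1-depleted H1299 cells differed from control cells in 4 members by the study's own thresholds, a 2-fold difference or more together with an adjusted p no higher than 0.025. The study applied these thresholds to Cuffdiff results. Here they were applied to limma on FPKM, so the calls are not the study's own. The death receptor gene TNFRSF21 and the BH3-only gene HRK fell, and the TNF receptor gene TNFRSF1B and the inhibitor of apoptosis gene BIRC3 rose. Of the 77 members, 55 reached 0.1 FPKM in at least 3 of the 6 libraries and were tested, and the 4 called members were 7.27% of them, beside 1.89% of all 16020 genes tested. Called higher were 2 members (all genes: 0.893%) and called lower were 2 (all genes: 0.999%). With the fold threshold dropped, 5 members passed (all genes: 3.41%), 2 higher (all genes: 1.25%) and 3 lower (all genes: 2.15%). An unadjusted p of at most 0.05 was reached by 19 members, 34.5% of those tested against 23.3% of all genes. The levels of 18 members were higher in all 3 shEphexin1 libraries than in any shControl library, which is 32.7% of those tested against 12.8% of all genes tested. For lower levels this held for 6 members, 10.9%, against 15.4% of all genes tested, and in either direction for 43.6%, against 28.3%. Without replicate 1 or replicate 3 of either group, 0 members were called higher and 1 lower, so that TNFRSF21 alone kept its call whichever library was left out. The median log2 fold change was 0.16 over the members tested and -0.01 over all genes tested. TNFRSF9 reached the tested set only through the group in which it was high, as did TNFRSF8 but for 1 shControl library at the filter. Of the members tested, 61.8% lay above 0, against 48.9% of all genes tested. These libraries give RNA levels of whole cultures, so fewer cells with a transcript and less of it per cell cannot be told apart. Libraries of 3 against 3 cannot reach an exact two-sided permutation p below 0.1, so tests rest on limma fitted across all genes.

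**Figure D1:**
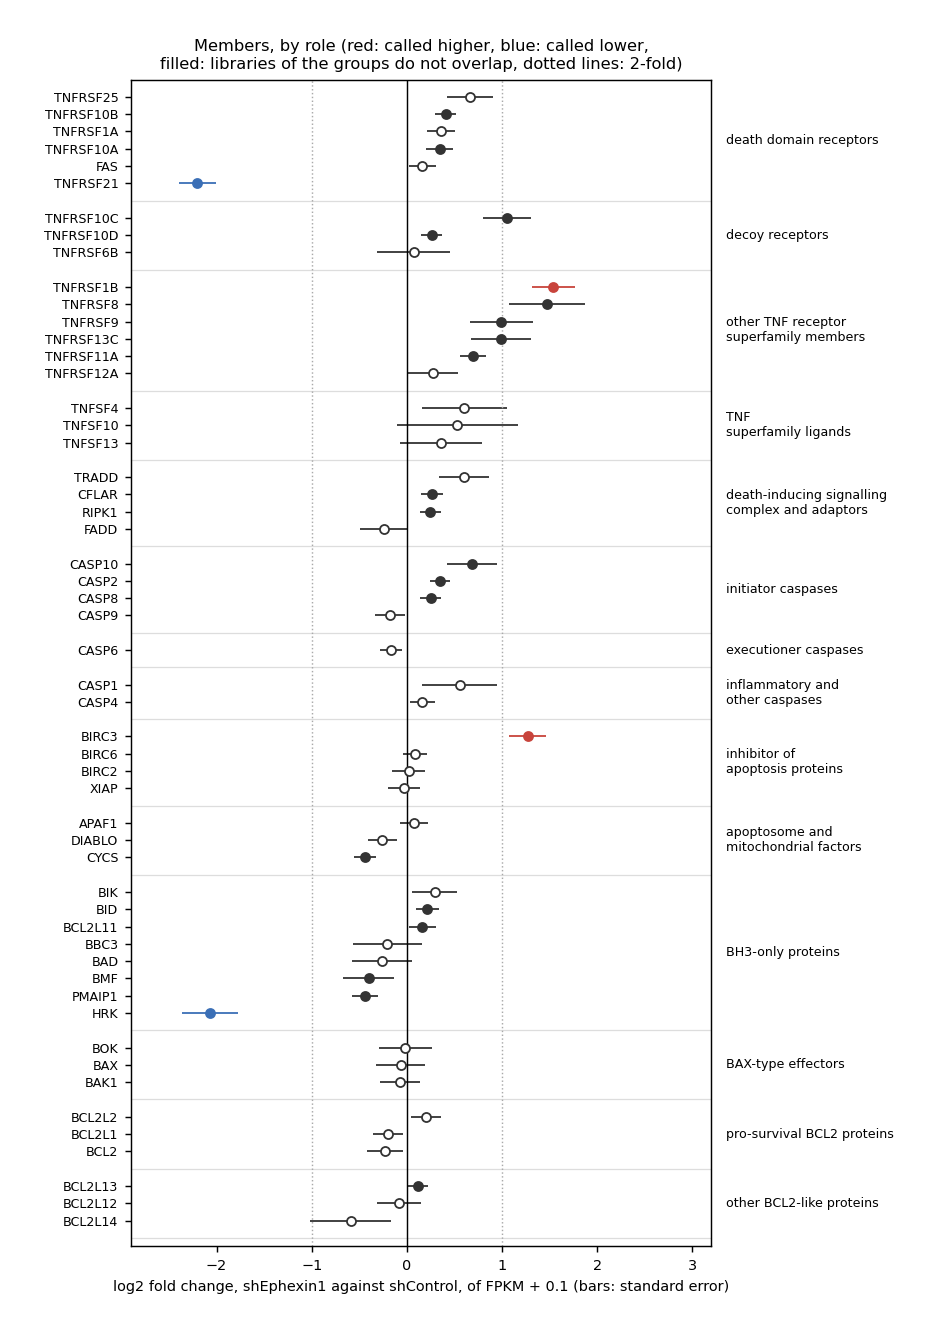
Log2 fold change of shEphexin1 against shControl (x axis, on log2 of FPKM + 0.1, bars are standard errors, 3 libraries a group) for 53 of the 55 members tested, grouped by role on the y axis. Red marks members called higher, blue those called lower, filled points those whose 2 groups do not overlap, and dotted lines a 2-fold difference. TNFRSF21 at -2.20 and HRK at -2.07 stand far to the left, and TNFRSF1B at 1.54 and BIRC3 at 1.27 are the called members on the right.

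TNFRSF21 encodes death receptor 6 (DR6), a death domain receptor also known for its part in neurons and lymphocytes. Its level was 3.22, 3.14 and 3.36 FPKM in control cells against 0.672, 0.483 and 0.746 FPKM in depleted cells. The highest depleted library lay far below the lowest control library, and the mean fell from 3.24 ± 0.111 to 0.634 ± 0.136 FPKM (SD, n = 3), or 19.6% of control. The log2 fold change was -2.20 (SE 0.197, limma adjusted p = 0.00203), and it was called in all 20 other fits, among them those without each library in turn. TNFRSF21 is the only member tested that was called in each of these fits. The gene lies on the short arm of chromosome 6 (GRCh37, chromosome 6, 47199268 to 47277641, minus strand). Of its 2 tested neighbours within 1 Mb with a mean of at least 1 FPKM, 1 was also called lower. The median of the pair was -0.85.

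The other 5 death domain receptors lay above 0, and none was called. TNFRSF1A, the main receptor for TNF, had the highest level of the group, at 88.7, 76.2 and 101.2 FPKM in control cells against 119.7, 95.3 and 126.1 FPKM in depleted cells. These ranges overlapped, and the log2 fold change was 0.36 (SE 0.151, limma adjusted p = 0.211). TNFRSF1A lies on the short arm of chromosome 12, whose median was -0.43, and with that median subtracted its value was 0.79 (limma adjusted p = 0.0353), still uncalled. TNFRSF25, which encodes death receptor 3, was at 15.9, 13.8 and 17.4 FPKM and at 31.0, 16.8 and 29.2 FPKM, so that replicate 2 of shEphexin1 alone fell inside the control range. With replicates 1 and 3 alone its log2 fold change was 0.85 and passed the p threshold (limma adjusted p = 0.00439), against 0.66 in all 6 libraries (limma adjusted p = 0.149). TNFRSF25 shares exon sequence with ESPN on the opposite strand, and the strand setting used for counting was not given in the sources used here. FAS, the receptor for FAS ligand, ran from 10.6 to 11.2 FPKM in shControl and from 10.4 to 14.3 FPKM in shEphexin1. The summed level of the 6 genes was 137.1 to 171.6 FPKM in shControl and 171.2 to 215.7 FPKM in shEphexin1, of which TNFRSF1A made up the largest portion.

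Receptors for TRAIL, the ligand encoded by TNFSF10, sit together on the short arm of chromosome 8. TNFRSF10A and TNFRSF10B encode the death receptors DR4 and DR5, while TNFRSF10C and TNFRSF10D encode decoys that bind TRAIL without a working death domain. All 4 were higher in the 3 shEphexin1 libraries than in any shControl library, and none was called. TNFRSF10B was at 25.6, 22.3 and 26.8 FPKM in control cells against 34.9, 31.7 and 32.2 FPKM in depleted cells, a log2 fold change of 0.41 (SE 0.114, limma adjusted p = 0.0793). TNFRSF10A was at 11.96, 10.62 and 12.05 FPKM against 14.7, 12.6 and 17.0 FPKM, a log2 fold change of 0.34 (SE 0.141, limma adjusted p = 0.200). Both death receptors therefore differed by much less than 2-fold. The decoy TNFRSF10C was at 0.500, 0.264 and 0.430 FPKM and at 0.893, 0.905 and 0.937 FPKM, the largest difference of the 4 (log2 fold change 1.05, SE 0.253, limma adjusted p = 0.0519). It passed both thresholds in 4 of the other fits, those with a replicate block, with a term for replicate 2 and with a GC correction, with or without the block. Part of its sequence is shared with another gene model on the same strand, so its reads may have been split. TNFRSF10D was at 8.89, 8.29 and 8.78 FPKM and at 10.9, 9.66 and 10.6 FPKM (log2 fold change 0.26, limma adjusted p = 0.228). Of the 22 other tested genes within 1 Mb of this cluster with a mean of at least 1 FPKM, 4 were higher without overlap and 1 was lower. Their median log2 fold change was 0.09.

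TNFSF10 itself was near the floor of the measurement. It was listed at 0.114, 0 and 0.0924 FPKM in control cells against 0.411, 0.142 and 0 FPKM in depleted cells. The groups overlapped with a zero on each side (log2 fold change 0.53, SE 0.635, limma adjusted p = 0.679). The 95% interval of that difference ran from -0.96 to 2.02, which leaves a change of several-fold undetectable. Among the 12 TNF superfamily ligands of the set, 3 were tested and none was called, TNFSF4 (OX40 ligand) and TNFSF13 (APRIL) being the others, both under 1 FPKM in all 6 libraries. FASLG, TNFSF8, TNFSF11 and TNFSF18 were listed at 0 in all 6 libraries, and TNFSF12, TNFSF13B, TNFSF14, TNFSF15 and TNFSF9 reached at most 0.141 FPKM.

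The remaining decoys were TNFRSF6B, the soluble decoy for FAS ligand, and TNFRSF11B, osteoprotegerin. TNFRSF6B was at 22.1, 10.5 and 23.7 FPKM in control cells against 20.7, 11.7 and 26.3 FPKM in depleted cells, with both replicate 2 libraries low and the groups overlapping (log2 fold change 0.07, limma adjusted p = 0.941). It shares exons with the readthrough gene RTEL1-TNFRSF6B, which makes its level uncertain. TNFRSF11B was listed at 0.351, 0.352 and 0.0903 FPKM in control cells against 0, 0.0427 and 0 FPKM in depleted cells, which is under the filter for testing.

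**Figure D2:**
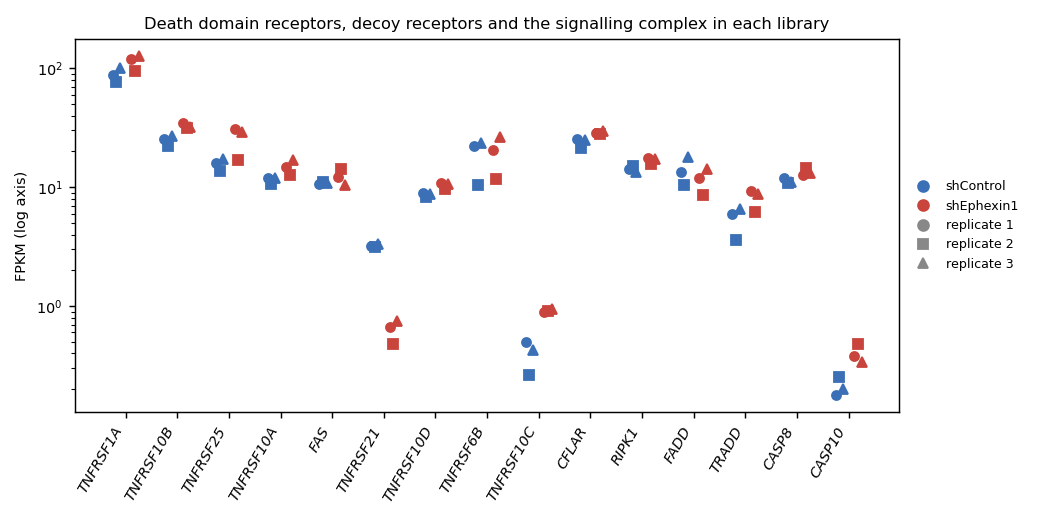
Level in FPKM (log axis) of death domain receptors, decoy receptors, adaptors and the caspases of the signalling complex, with shControl libraries in blue, shEphexin1 libraries in red and the replicate number by symbol. TNFRSF1A is highest, at 76.2 to 126.1 FPKM, TNFRSF21 is the gene whose red points lie far under its blue ones, and the red points of the 4 TRAIL receptor genes all lie above their blue ones.

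The TNF receptors without a death domain, which signal through TRAF adaptors, were the role with the largest median difference, 0.99 on the log2 scale over 6 genes tested. The 6 lay above 0. Apart from TNFRSF9, tested only through its high group, 4 of the other 5 were higher without overlap, beside 12.8% of all genes tested, and the median of those 5 was 0.99. Of those 4, TNFRSF8 also met the filter through its high group, with 1 shControl library just above 0.1 FPKM. The count and median therefore still hold a member that its high group let in. TNFRSF1B, the second receptor for TNF (TNFR2), was at 0.295, 0.247 and 0.348 FPKM in control cells against 1.21, 0.913 and 1.04 FPKM in depleted cells. It rose from 0.297 ± 0.0506 to 1.05 ± 0.148 FPKM (SD, n = 3), and the lowest depleted library lay well above the highest control library (log2 fold change 1.54, SE 0.228, limma adjusted p = 0.0127). The call was lost without shControl replicate 1 (limma adjusted p = 0.0737), replicate 2 (0.0348) or replicate 3 (0.0382), and without shEphexin1 replicate 1 (0.0806) or replicate 3 (0.0564), with fold changes of 1.44 to 1.63 in those fits. With a pseudocount of 1 FPKM it shrank to 0.66, under 2-fold.

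TNFRSF11A (RANK, the receptor for the bone ligand RANKL) was at 3.16, 3.30 and 3.47 FPKM and at 5.29, 5.02 and 6.01 FPKM, without overlap (log2 fold change 0.70, SE 0.137, limma adjusted p = 0.0306). It lies on the long arm of chromosome 18, whose genes had a median log2 fold change of -0.44, and it was called once that arm median was subtracted (1.14, limma adjusted p = 0.00663). TNFRSF8 (CD30) sits beside TNFRSF1B on chromosome 1. TNFRSF8 was listed at 0.104, 0.0224 and 0 FPKM against 0.188, 0.274 and 0.391 FPKM (log2 fold change 1.47, SE 0.398, limma adjusted p = 0.0719). Among the 15 other tested genes within 1 Mb of that pair with a mean of at least 1 FPKM, 7 were higher without overlap and none was lower. Their median was 0.22. The part of this neighbourhood in the TNFRSF1B result was not tested.

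TNFRSF13C (BAFF receptor, best known from B cells) was at 1.63, 1.46 and 2.74 FPKM in control cells against 5.68, 3.07 and 3.15 FPKM in depleted cells (log2 fold change 0.99, SE 0.316, limma adjusted p = 0.114). TNFRSF9 (4-1BB) was listed at 0.0166, 0 and 0 FPKM and at 0.1003, 0.1118 and 0.1169 FPKM, levels at the filter itself. TNFRSF12A, the receptor for TWEAK, had the highest level of all members, at 175.3, 119.5 and 203.5 FPKM in control cells against 211.8, 140.0 and 253.5 FPKM in depleted cells. Its groups overlapped and replicate 2 was lowest in each (log2 fold change 0.27, limma adjusted p = 0.596). TNFRSF4 and TNFRSF18 were listed at 0 in all 6 libraries, and TNFRSF13B, TNFRSF14, TNFRSF17 and TNFRSF19 reached at most 0.137 FPKM.

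At the receptor complex, 3 genes that stand beside each other on chromosome 2 were higher in shEphexin1 without overlap. CFLAR encodes c-FLIP, which competes with caspase-8 for FADD. CFLAR was at 25.6, 21.4 and 25.1 FPKM against 28.6, 28.0 and 29.9 FPKM (log2 fold change 0.26, SE 0.112, limma adjusted p = 0.211). CASP8, the initiator caspase of the extrinsic route, was at 11.9, 10.8 and 11.1 FPKM against 12.7, 14.4 and 13.1 FPKM (0.25, SE 0.114, limma adjusted p = 0.241). CASP10, its close relative, was at 0.180, 0.253 and 0.201 FPKM against 0.380, 0.476 and 0.342 FPKM (0.68, SE 0.262, limma adjusted p = 0.174). None of the 3 passed the test. At the low level of CASP10 the 0.1 FPKM added before taking logs shrinks the ratio of its listed values, which are themselves uncertain. Of the 20 other tested genes within 1 Mb with a mean of at least 1 FPKM, 4 were higher and 4 lower without overlap. Their median was 0.02.

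RIPK1, the kinase that links TNF receptors to NF-kB and to cell death, was at 14.11, 15.04 and 13.49 FPKM against 17.7, 15.6 and 17.4 FPKM (log2 fold change 0.25, limma adjusted p = 0.239). TRADD, the adaptor of TNFRSF1A, was at 5.92, 3.62 and 6.57 FPKM against 9.33, 6.13 and 8.76 FPKM, its groups overlapping through the replicate 2 library of shEphexin1 (0.60, SE 0.260, limma adjusted p = 0.220). FADD lay at -0.25 with overlapping groups. CASP2 was at 13.1, 12.1 and 13.3 FPKM against 16.6, 16.8 and 15.6 FPKM (0.34, SE 0.107, limma adjusted p = 0.104). It lies on the long arm of chromosome 7, where the median gene stood at 0.29, and its own difference was 0.05 after that median was subtracted. CASP9, the initiator of the intrinsic route, lay at -0.18 with overlapping groups.

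CASP6, an executioner caspase, ran from 9.10 to 9.79 FPKM in shControl and from 7.75 to 9.10 FPKM in shEphexin1 (log2 fold change -0.17, limma adjusted p = 0.460). Of the inflammatory and other caspases, CASP4 (0.16) and CASP1 (0.55) overlapped between groups, CASP12 and CASP14 were listed at 0 in all 6 libraries, and CASP5 was above 0 in 1 library.

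Of the 3 apoptosome and mitochondrial genes, 2 lay below 0 and none passed the test. CYCS, cytochrome c, was at 33.5, 33.0 and 31.9 FPKM against 24.7, 26.4 and 21.4 FPKM, without overlap (log2 fold change -0.44, SE 0.114, limma adjusted p = 0.0622). It lies on the short arm of chromosome 7, with a median of -0.25, and stood at -0.19 after that median was subtracted (limma adjusted p = 0.406). Its 3 tested neighbours within 1 Mb with a mean of at least 1 FPKM had a median of -0.49. The part of this in the CYCS result was not tested. DIABLO (SMAC), which blocks inhibitor of apoptosis proteins, was at 36.6, 28.7 and 35.3 FPKM against 31.4, 23.4 and 29.5 FPKM with overlap (-0.26, limma adjusted p = 0.374). APAF1 lay at 0.08.

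BIRC3 was the called member among inhibitors of apoptosis. It encodes cIAP2, a ubiquitin ligase of the TNF receptor complex and a textbook NF-kB target. BIRC3 was at 3.15, 3.96 and 3.10 FPKM in control cells against 8.21, 10.4 and 6.71 FPKM in depleted cells. It rose from 3.40 ± 0.479 to 8.43 ± 1.84 FPKM (SD, n = 3), and replicate 2 was the highest library in each group (log2 fold change 1.27, SE 0.193, limma adjusted p = 0.0139). The call was lost without shControl replicate 1 (limma adjusted p = 0.0850) or replicate 3 (0.0573) and without shEphexin1 replicate 1 (0.0753) or replicate 3 (0.0267), the log2 fold change staying at 1.21 to 1.42 in those fits. BIRC2 (cIAP1), its neighbour, was at 18.4, 23.6 and 18.5 FPKM against 17.9, 25.2 and 18.5 FPKM (log2 fold change 0.02, 95% interval -0.38 to 0.42). XIAP and BIRC6 lay at -0.03 and 0.09 with overlapping groups. The 7 other tested genes within 1 Mb of BIRC2 and BIRC3 with a mean of at least 1 FPKM had a median of 0.01. None of the 7 was apart between groups.

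The promoters of the 4 called members are shown so that the sequence before each start site can be read beside its change. Each is the 250 bases before the RefSeq transcription start (GRCh38.p14), 5' to 3' on the gene's strand, and capitals mark matches to the NF-kB consensus on either strand. They are chr11:102317234-102317483 on the plus strand for BIRC3, chr1:12166741-12166990 on the plus strand for TNFRSF1B, chr6:47309906-47310155 on the minus strand for TNFRSF21 and chr12:116881442-116881691 on the minus strand for HRK.
BIRC3: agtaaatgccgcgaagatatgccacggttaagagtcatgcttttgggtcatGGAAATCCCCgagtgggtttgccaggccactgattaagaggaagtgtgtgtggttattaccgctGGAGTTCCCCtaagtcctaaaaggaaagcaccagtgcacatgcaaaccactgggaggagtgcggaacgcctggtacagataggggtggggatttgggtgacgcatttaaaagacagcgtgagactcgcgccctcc
TNFRSF1B: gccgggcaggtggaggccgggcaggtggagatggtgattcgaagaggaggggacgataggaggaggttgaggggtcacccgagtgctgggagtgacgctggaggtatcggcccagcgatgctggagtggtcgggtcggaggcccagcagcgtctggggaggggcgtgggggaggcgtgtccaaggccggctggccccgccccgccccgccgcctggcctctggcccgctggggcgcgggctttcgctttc
TNFRSF21: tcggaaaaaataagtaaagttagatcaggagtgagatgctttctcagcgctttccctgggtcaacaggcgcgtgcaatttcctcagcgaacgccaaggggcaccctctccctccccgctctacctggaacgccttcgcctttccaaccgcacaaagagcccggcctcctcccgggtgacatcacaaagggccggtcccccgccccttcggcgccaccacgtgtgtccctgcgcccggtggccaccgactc
HRK: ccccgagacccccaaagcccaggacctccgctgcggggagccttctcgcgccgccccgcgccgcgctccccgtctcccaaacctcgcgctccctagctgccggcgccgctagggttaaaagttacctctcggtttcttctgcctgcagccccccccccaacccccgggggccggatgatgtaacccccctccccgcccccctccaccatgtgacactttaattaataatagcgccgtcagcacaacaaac
BIRC3 held 2 NF-kB matches, whose first bases lay 199 and 135 bases before the start, and the other 3 promoters held none. In all, 9.96% of the 35116 promoters of this length held at least 1 match, as did 5 of the 42 tested members with a promoter in the table (BIRC3, BIRC6, BMF, CFLAR and TNFRSF9). The GC box GGGCGG, searched on both strands, was found in TNFRSF21 (1 match), HRK (2) and TNFRSF1B (2). It was also found in 30 of the 42 tested members with a promoter (71.4%) and in 42.6% of all promoters. The AP-1 motif TGANTCA, also on both strands, was in none of the 4 called members. It was in 3 of the 42 (7.14%) and in 6.57% of all promoters. For each motif, members were counted with 1 promoter each. The shares of all promoters cover every promoter listed, whether or not its gene was tested, so the 2 kinds of share are not like for like. BIRC3's NF-kB matches did not overlap any of the other motifs. A match is a description of letters and not a binding site.

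**Figure D3:**
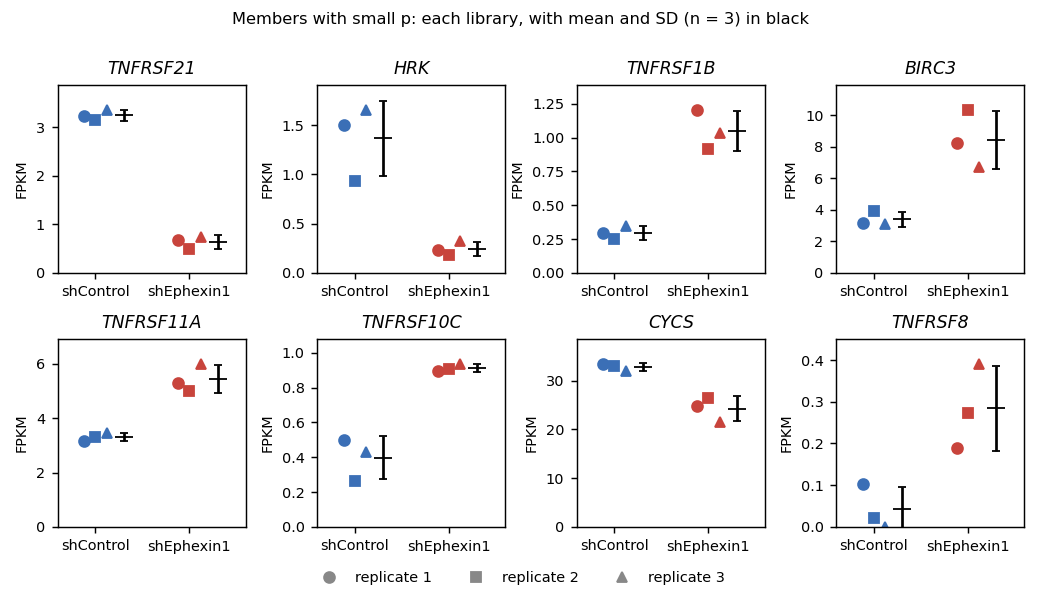
Level in FPKM (y axis from 0) of 8 members with small unadjusted p, 1 panel a gene, with each library as a point (replicate number by symbol) and the mean with SD of 3 libraries in black (the shControl bar of TNFRSF8 is cut off at 0). The groups are apart in each panel, with TNFRSF21 going from a mean of 3.24 to 0.634 FPKM and BIRC3 from 3.40 to 8.43 FPKM, while CYCS goes from 32.8 to 24.2 FPKM.

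Among BH3-only genes, HRK (Harakiri) fell. HRK protein binds pro-survival BCL2 proteins and is best known from dying neurons. HRK RNA was at 1.51, 0.932 and 1.66 FPKM in control cells against 0.232, 0.182 and 0.321 FPKM in depleted cells. The mean fell from 1.36 ± 0.382 to 0.245 ± 0.0707 FPKM (SD, n = 3), with replicate 2 lowest in each group (log2 fold change -2.07, SE 0.291, limma adjusted p = 0.0106). The call was lost without shControl replicate 1 (limma adjusted p = 0.0737) or replicate 3 (0.0482) and without shEphexin1 replicate 1 (0.0561) or replicate 3 (0.0310), with fold changes of -1.92 to -2.22 on the log2 scale. A pseudocount of 1 FPKM brought it to -0.91, under 2-fold. HRK lies on the long arm of chromosome 12. Of its 6 tested neighbours within 1 Mb with a mean of at least 1 FPKM, 5 were lower without overlap. The median of the 6 was -0.36, and the part of this in the HRK result was not tested.

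The other 7 BH3-only genes did not pass the test. PMAIP1 (NOXA) was at 16.6, 17.0 and 13.7 FPKM against 10.8, 12.8 and 11.2 FPKM without overlap (log2 fold change -0.44, SE 0.134, limma adjusted p = 0.0979). It lies on the long arm of chromosome 18, whose median was also -0.44, and nothing remained after that median was subtracted (limma adjusted p = 0.999). BMF was at 0.411, 0.338 and 0.570 FPKM against 0.337, 0.278 and 0.292 FPKM (-0.40, limma adjusted p = 0.421). BID, which carries the signal from caspase-8 to the mitochondrion, was at 5.79, 6.01 and 5.56 FPKM against 6.37, 6.68 and 7.10 FPKM (0.21, limma adjusted p = 0.349). BCL2L11 (BIM) was at 2.197, 2.282 and 2.180 FPKM against 2.47, 2.59 and 2.41 FPKM (0.16, limma adjusted p = 0.561). BAD had the highest level, at 28.5 to 56.2 FPKM against 23.6 to 47.0 FPKM, with replicate 2 lowest in both groups. BBC3 (PUMA) and BIK lay at -0.21 and 0.29 with overlapping groups.

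The effectors that open the mitochondrial membrane showed no detectable difference. BAX was at 25.7, 17.6 and 29.7 FPKM against 27.8, 16.5 and 25.6 FPKM (log2 fold change -0.06, 95% interval -0.66 to 0.53). BAK1 and BOK lay at -0.07 and -0.02, also with overlapping groups. Of the pro-survival genes, BCL2L1 (BCL-XL) had the highest level, at 62.9, 48.6 and 63.7 FPKM against 56.3, 43.0 and 53.2 FPKM (-0.20, limma adjusted p = 0.503). BCL2 was at 2.85, 3.24 and 2.67 FPKM against 2.86, 1.96 and 2.65 FPKM (-0.23, limma adjusted p = 0.522), and BCL2L2, which shares exons with a readthrough gene, lay at 0.20. The fold changes of BCL2 and BCL2L1 turned positive when the median of their chromosome arm was subtracted. BCL2A1 and BCL2L10 stayed under the filter. BCL2L13 was at 19.9, 18.9 and 21.0 FPKM against 22.1, 21.0 and 21.7 FPKM (0.12, limma adjusted p = 0.550), while BCL2L12 and BCL2L14 lay at -0.08 and -0.59 with overlap (BCL2L14, also on the short arm of chromosome 12, at -0.16 after the arm median was subtracted) and BCL2L15 stayed at or under 0.126 FPKM.

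**Figure D4:**
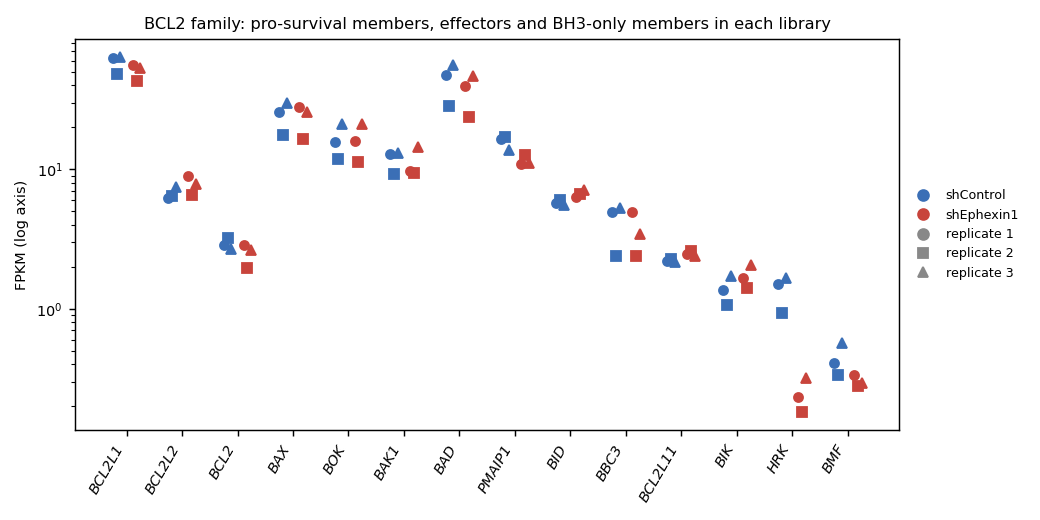
Level in FPKM (log axis) of pro-survival, effector and BH3-only BCL2 family genes in each library, with shControl in blue, shEphexin1 in red and the replicate number by symbol. BCL2L1 is the highest of the pro-survival genes, at 43.0 to 63.7 FPKM, and HRK shows the widest gap between groups, from 0.932 to 1.66 FPKM down to 0.182 to 0.321 FPKM. PMAIP1 and BMF lie lower in red without overlap, BMF almost touching (0.3374 under 0.3376 FPKM), and BID and BCL2L11 lie higher in red without overlap.

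Other genes of the same pathways, 45 in a list that held no member, gave 35 tested genes, of which 2 were called, 5.71% beside 1.89% of all genes tested. CD40, a TNF receptor superfamily gene that its symbol kept out of the set, rose from 0.166, 0 and 0 FPKM to 1.46, 1.05 and 1.38 FPKM (log2 fold change 3.32, SE 0.427, limma adjusted p = 0.00765). The CD40 call was lost without shControl replicate 3 (limma adjusted p = 0.0292), shEphexin1 replicate 1 (0.0499) or shEphexin1 replicate 3 (0.0383), and with a pseudocount of 0.01 FPKM (0.0339). CD40 met the filter through the group in which it was high, since only 1 shControl library reached 0.1 FPKM. LTB, a TNF superfamily ligand, was at 0.328, 0.254 and 0.225 FPKM in shControl and listed at 0 in all shEphexin1 libraries (limma adjusted p = 0.0184). LTB was tested only through the group in which it was high, and its call was lost in each of the 6 fits without 1 library (limma adjusted p from 0.0343 to 0.105), with replicates 1 and 3 alone (0.0434) and with a pseudocount of 1 FPKM (0.0332) or 0.01 FPKM (0.0286). Among the 7 genes that were higher without overlap, TNFAIP3 (A20, a brake on NF-kB) was uncalled at 0.995, 0.778 and 1.10 FPKM against 1.87, 1.58 and 1.93 FPKM (0.85, limma adjusted p = 0.0483). TRAF1, an adaptor of TNF receptors, stood at 0.58 (limma adjusted p = 0.0843) and CYLD, a deubiquitinase, at 0.61 (limma adjusted p = 0.0596). NAIP, an inhibitor of apoptosis protein, stood at 0.51 (limma adjusted p = 0.0815), MLKL, the effector of necroptosis, at 0.44 (limma adjusted p = 0.110) and TRAF5 at 0.38 (limma adjusted p = 0.181). BIRC5 (survivin), a gene of dividing cells, was at 85.2, 68.7 and 84.0 FPKM against 53.5, 43.2 and 52.8 FPKM (-0.67, limma adjusted p = 0.0326), under 2-fold. On the long arm of chromosome 17 the median was -0.21, and with it subtracted BIRC5 stood at -0.46 (limma adjusted p = 0.111). BNIP3 passed the p threshold at -0.68 (limma adjusted p = 0.0158), also under 2-fold. VDAC2, a channel of the outer mitochondrial membrane, was lower without overlap at -0.30 (limma adjusted p = 0.128). Both BNIP3 and VDAC2 lie on the long arm of chromosome 10, whose median was -0.30. With that median subtracted, BNIP3 stood at -0.38 and no longer passed (limma adjusted p = 0.104), and VDAC2 stood at -0.0006. MCL1, the pro-survival gene outside the set, stood at 109.3 ± 2.08 and 106.9 ± 7.45 FPKM (SD, n = 3). In this list 7 of the 35 genes were higher without overlap, where 12.8% of all genes tested were, and 4 were lower, where 15.4% were, and the median was -0.02.

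Replicate 2 of both groups could be set against the other libraries. The ratio of the replicate 2 libraries had the same sign as the fold change from replicates 1 and 3 for 49 of the 55 members tested, 89.1%, against 75.6% of the other genes tested. Exceptions included BAK1, BOK, BIRC2, XIAP and BCL2L14. With replicates 1 and 3 alone, 8 members passed an adjusted p of at most 0.025, 14.5% of those tested against 10.6% of all genes tested. BIRC3, TNFRSF11A, TNFRSF1B and TNFRSF25 were higher (all genes: 3.95%) and 4 members, among them CYCS, HRK and TNFRSF21, were lower (all genes: 6.67%), and all 8 had the same sign in replicate 2, as did 1659 of the other 1693 genes that passed there. After each library was corrected for GC content and length, 19 members passed, 13 higher (all genes: 10.4%) and 6 lower (all genes: 11.1%), which is 34.5% of those tested against 21.4% of all genes tested. Members that passed there but not in the uncorrected fit included TNFRSF1A (limma adjusted p = 0.00178), TNFRSF10A (0.00462), TNFRSF10B (0.00253), TRADD (0.00495), CFLAR (0.0246) and CASP2 (0.00488), all higher, and BCL2L1 (0.0138), PMAIP1 (0.0147) and CYCS (0.00500), all lower. Each of these differed by less than 2-fold.

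**Figure D5:**
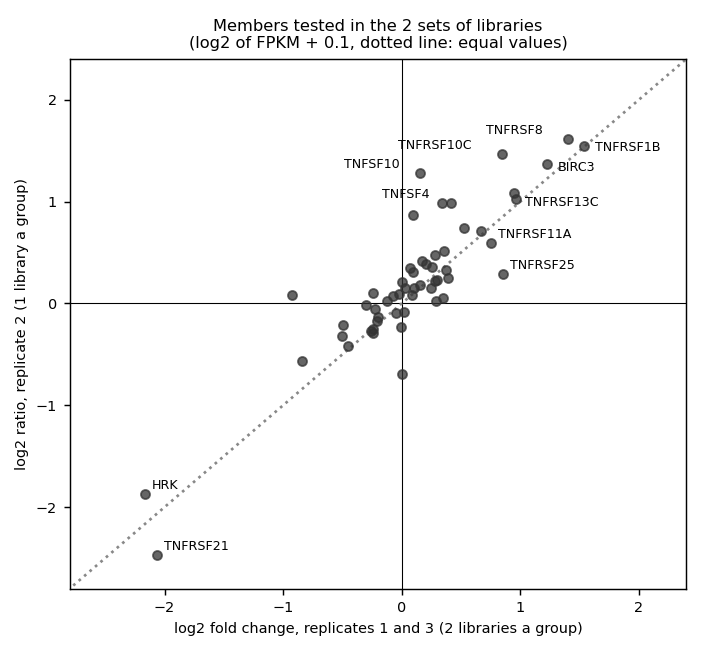
Log2 fold change of shEphexin1 against shControl from replicates 1 and 3 (x axis, 2 libraries a group) and log2 ratio from replicate 2 (y axis, 1 library a group), both on FPKM + 0.1, with 1 point for each of the 55 members tested and a dotted line of equal values. HRK and TNFRSF21 lie at the lower left and TNFRSF1B, TNFRSF8 and BIRC3 at the upper right, and 49 of 55 points have the same sign on both axes.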

How the data were processed

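Stranded total RNA libraries (TruSeq) of the 6 H1299 samples were sequenced on a NovaSeq6000. The authors aligned reads to GRCh37 (hg19) with TopHat2 2.0.13 and made FPKM values per gene with Cufflinks 2.2.1, with geometric normalization across libraries, and the deposited table of FPKM was used as given. Base calls came from bcl2fastq 2.20 per the labels. The gene annotation and the strand setting are not given in the sources used here. Depth is unknown, so no counting interval is given.

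Tested were the genes that reached 0.1 FPKM in 3 or more of the 6 libraries, by limma 3.58.1 (R 4.3.3, trend) on log2(FPKM + 0.1). The added 0.1 shrinks the ratio of the listed values of low genes. P-values were adjusted by Benjamini-Hochberg over all 16020 genes tested. Called means an adjusted p of at most 0.025 and at least 2-fold. The script was tested on simulated data. Of 22 alternatives, 20 were refits. Coordinates, chromosome arms and overlaps came from GENCODE 44 on GRCh37, to which all 77 members matched. Arm medians used genes with a mean of at least 1 FPKM. Neighbours within 1 Mb were held to the same mean and left out members. Promoters were RefSeq's.

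Members were matched by symbol. Named with values were the called members, those without overlap, the 30 with the smallest p, the highest of each role, members on 7q, 12p or chromosome 18, and NGEF. Of the other pathway genes, those called or without overlap were named. FAS, FADD, CASP9, APAF1, XIAP, BIRC2, BAK1, BOK, BIK, BBC3, BCL2L2, BCL2L12 and MCL1 lie outside this rule and were named after their values were seen. The members and lists were chosen with earlier results of these data known. The hairpin sequence was not used here, and some genes that the rules would name are not reported here, though counts over all members include them.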

Additional observations from a re-analysis of the deposited data

How the results depend on the processing

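Across 20 refits of 41 members named by rule, 778 of 808 values kept their direction and side of the thresholds, 15 lost and 5 gained a call, and 10 changed sign, all 10 among uncalled members. With a pseudocount of 1 FPKM, 1 member was called higher and 1 lower instead of 2 and 2, since TNFRSF1B and HRK came out under 2-fold. With a filter of 1 FPKM the counts were also 1 and 1, but there TNFRSF1B and HRK were left untested. Leaving out 1 library gave 0 to 2 members called higher and 1 to 2 called lower. Members lower without overlap numbered 13 with replicates 1 and 3 alone, or 23.6% against 32.1% of all genes tested in that fit, and 6 to 10 when 1 library was left out, 10 without shControl replicate 2, where the shares were 18.2% and 23.6%. With 1 library left out the share of all genes was 17.3% to 23.7%, since fewer libraries separate more easily by construction. Sign changes occurred with chromosome arm medians subtracted for BCL2 (0.21) and BCL2L1 (0.023). With 1 library left out, the log2 fold change ran from -0.54 to 0.026 for BAD (positive without shEphexin1 replicate 2), from -0.28 to 0.17 for BAX (0.096 without shControl replicate 3, 0.17 without shEphexin1 replicate 2), from -0.30 to 0.40 for TNFRSF6B (-0.30 without shControl replicate 2, -0.0082 and -0.18 without shEphexin1 replicates 1 and 3), from -0.042 to 1.13 for TNFSF10 (negative without shEphexin1 replicate 1) and from -0.091 to 0.73 for TNFSF13 (negative without shControl replicate 2). Apart from what the construction shows, the cause was not tested. With the replicate number as a block, 3 members were called higher and 2 lower, the added call being TNFRSF10C (limma adjusted p = 0.0213). Nothing states whether the numbers pair the libraries, and the main fit held no term for them. Deviations from group means correlated at 0.09, 0.43 and 0.33 for replicates 1, 2 and 3. Every library correlated best with its own number, a hint of pairing from the data only. Unknown depth limits members with a mean under 1 FPKM, among them TNFRSF1B and HRK.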
